A study of Mus musculus with 8 samples.

Results

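Ras, Rap and Ral proteins are small GTPases that switch between a GDP-bound and a GTP-bound form and work only after an isoprenoid lipid has been joined to a cysteine near their C-terminus. Hras and Nras carry farnesyl, whereas Rap1a, Rap1b, Rala and Ralb carry geranylgeranyl, the lipid that is built from the product of geranylgeranyl diphosphate synthase (Ggps1). In the lung, Ras feeds the ERK kinase cascade, Rap1 controls integrins and endothelial junctions, and Ral steers the exocyst complex in secretion. The mRNAs of 8 such genes (Hras, Nras, Rap1a, Rap1b, Rap2a, Rap2b, Rala and Ralb) were followed here, as all probes that the array files assign to these names. They have 13 of the 55681 probes and 8 of the 36095 gene names on the array. Hras is listed under its older name Hras1.

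The RNA came from whole lungs of C57BL/6 mice taken 12 h after lipopolysaccharide (LPS), the bacterial endotoxin. The wild-type group and the Ggps1 knockout group had 4 samples each, and the design text describes the knockout as lung specific. The sources used here do not give the driver of the deletion, the deleted part of the gene, the age of the animals or whether each sample was 1 mouse, so p-values cover the spread between these samples. Because LPS was given to both groups, the response to LPS itself was not measured.

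Each sample was on its own single-colour Agilent array. Of the gene spots, 61.5% to 65.3% were well above background on the wild-type and 58.1% to 61.6% on the knockout arrays. The 8 arrays lay on 1 slide, with wild-type samples in row 1 and knockout samples in row 2, so slide position and genotype cannot be told apart. Levels are given as log2 signal over that array's 75th percentile, and differences are knockout minus wild-type on that scale. Ggps1 mRNA differed by -0.060 ± 0.068 (SE; limma, adjusted p = 0.613), which does not check the labels, since the deleted part is unknown and whole lung also holds cells outside a tissue-restricted deletion. Markers of alveolar and club epithelium summed to 1781 to 2146 in the wild-type and 1802 to 2238 in the knockout samples, times the 75th percentile. Cardiac muscle markers summed to 420, 568 and 527 in wild-type replicate 2 and knockout replicates 2 and 4, and to between 20.1 and 162 in the other samples.

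The probes are 60-base oligonucleotides, and those that the results turn on are shown 5′ to 3′, read from the array files. The Hras probe lies on mm9 chromosome 7 (148377296 to 148377355, minus strand), the Rala probe on chromosome 13 (17980422 to 17980481, minus strand) and the Rap1a probe on chromosome 3 (105531168 to 105531192, minus strand). The 3 Nras probes lie on chromosome 3, plus strand, with the upstream one at 102868451 to 102868510, the middle one at 102870149 to 102870208 and the downstream one at 102871322 to 102871381. The Rap2a probe lies on chromosome 14 (120906220 to 120906279, plus strand). For Nras and Rap2a the first 30 bases are given. Capitals in the Rala probe (bases 22 to 33) mark the codons of the Asn-Lys-x-Asp motif, with which small GTPases recognise guanine. The codon string searched was held, on either strand, by 0.122% of the array's probes and by 1 of the 13. No exon or UTR annotation of this build was used.
Hras A_51_P357664: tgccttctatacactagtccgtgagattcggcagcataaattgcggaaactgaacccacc
Rala A_51_P365694: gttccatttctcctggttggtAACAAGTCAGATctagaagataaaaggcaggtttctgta
Rap1a A_55_P2128492: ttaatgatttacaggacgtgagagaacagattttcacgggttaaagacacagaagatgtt
Nras upstream, A_52_P649296: cattctgttgacaacagtttcttatactct
Nras middle, A_51_P396273: actaatcagaagggggaacaaacatttgct
Nras downstream, A_52_P566348: ggtggaattagctcagctctatatgagaag
Rap2a A_52_P336290: gatccagttcacagttaattgttggactct
The GC content of the 13 probes ran from 35% to 51.7%, against a median of 43.3% over the array. Of the 13, 12 shared no run of 16 bases, on either strand, with any other probe of the array. The exception was the middle Nras probe, which shared such a run with a probe for A330023F24Rik. The file places only 25 of the 60 bases of the Rap1a probe on the genome, and each of the other 12 probes in full.

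None of the 8 mRNAs passed the test in the knockout lungs (limma, Benjamini-Hochberg adjusted p under 0.05 over 24437 genes), a test that 0.0614% of all genes passed, 0.0327% upward and 0.0286% downward. Rap2a came nearest, at 1.31-fold lower. Rap1a and Hras were lower at an unadjusted p under 0.05, while Rap1b, Nras, Rala, Ralb and Rap2b did not reach that level. The 3 genes with an unadjusted p under 0.05 are read against the 23.6% of all genes that reached it, and 7 of 8 members were below 0, as were 54.3% of all genes tested. The median difference was -0.13 over the 8 members and -0.027 over all genes. In whole lung, fewer cells of a type and less RNA per cell cannot be told apart.

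**Figure D1:**
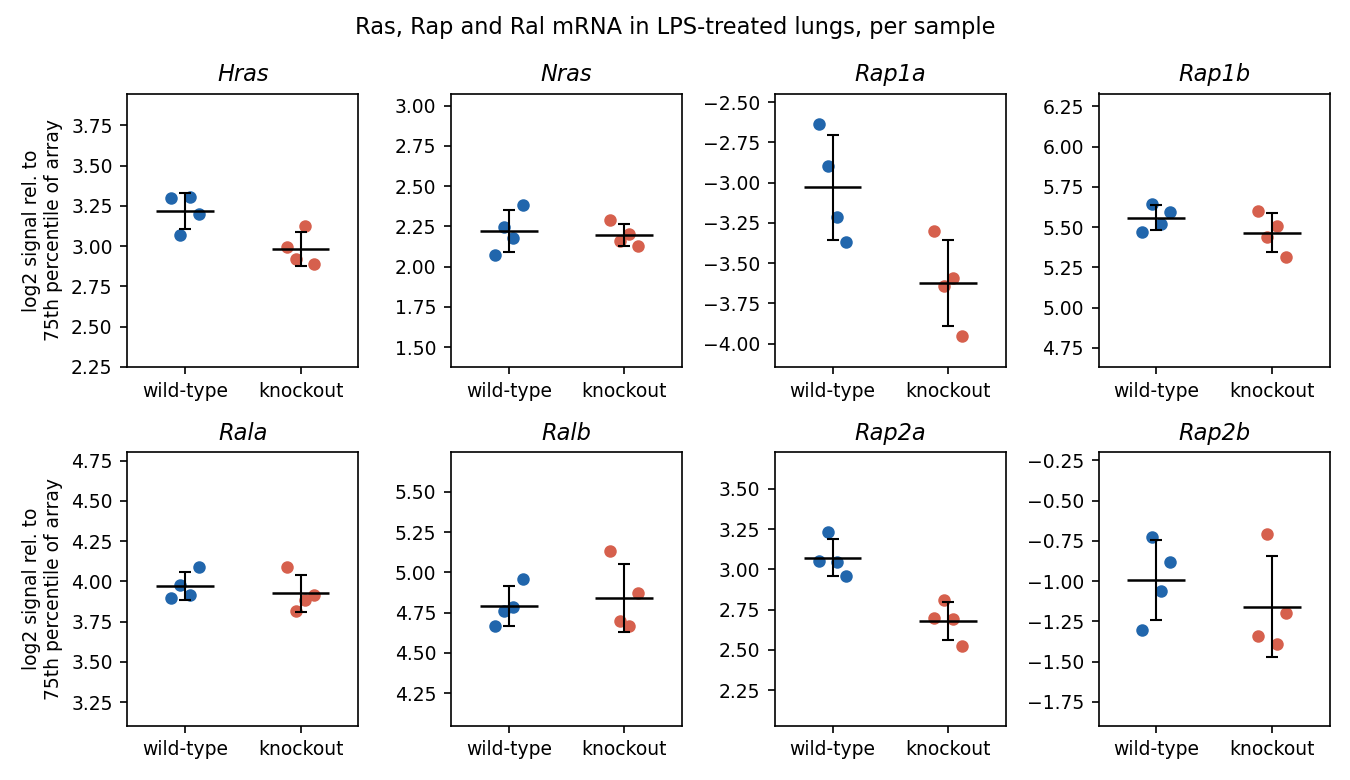
Log2 signal over the array's 75th percentile (y axis) for the brightest probe of each gene in the 4 wild-type (blue) and 4 knockout (red) samples. Points are samples, long bars are means and whiskers are SD; every panel spans the same number of log2 units, and the groups are fully apart in the Rap2a panel alone.

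Hras was 1.18-fold lower in the knockout lungs. This farnesylated Ras, which is also palmitoylated and activates the RAF kinases and PI3 kinase, had 3.30, 3.07, 3.31 and 3.20 in the wild-type and 3.0, 2.92, 3.12 and 2.89 in the knockout samples, here and below in the order of their replicate numbers, at the coding-sequence probe printed above. Only knockout replicate 3 rose above the lowest wild-type sample, so the groups overlapped. With a difference of -0.24 ± 0.088 (SE), Hras missed the threshold (limma, adjusted p = 0.162). A dimmer probe 2265 bases downstream on the genome gave -0.23 ± 0.15 (SE), but with normexp background correction that value was 0.049. The other Hras probe, 1253 bases downstream, was not well above background on any of the 8 arrays and was not tested.

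Nras depended on the probe. Nras, the other farnesylated Ras here, is known as a growth-factor switch of blood and epithelial cells. Its brightest and most downstream probe read 2.07, 2.25, 2.18 and 2.38 in the wild-type and 2.29, 2.16, 2.20 and 2.13 in the knockout samples, with overlapping groups. The difference was -0.024 ± 0.086 (SE; limma, adjusted p = 0.89), with a 95% interval from -0.22 to 0.18. Its sign turned with quantile normalization (0.015) and without wildtype replicate 4 (0.031).

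The upstream Nras probe, by contrast, read 1.29, 1.49, 1.26 and 1.38 in the wild-type and 1.08, 1.12, 0.83 and 1.1 in the knockout samples. Every knockout sample was below every wild-type sample there, a separation that 15% of all probes showed. The difference was -0.32 ± 0.096 (SE) and did not pass over the 33866 probes tested (limma, adjusted p = 0.111; 0.065% of probes passed). The middle probe, 1698 bases from the upstream one, lay between them at -0.12 ± 0.091 (SE), and the downstream probe lies 2871 bases from the upstream one. With the 3 probes averaged, Nras differed by -0.16.

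Within each array, the downstream Nras probe exceeded the upstream one by 0.78, 0.76, 0.91 and 1.01 in the wild-type and by 1.21, 1.03, 1.37 and 1.03 in the knockout samples. This gap was wider in all 4 knockout samples than in any wild-type sample. It grew by 0.30 ± 0.099 (SE; exact permutation p = 0.0286, two-sided, the smallest that 4 against 4 allows, before adjustment). The other 4 pairs of tested probes of a member had overlapping groups, with exact permutation p of 0.171 for Nras downstream against middle, 0.2 for Nras middle against upstream, 0.171 for Rala and 0.943 for Hras. In a fit over all 9429 pairs of probes of 1 gene it did not pass (limma, adjusted p = 0.15; 0.0424% of pairs passed, and 14.9% had groups apart). This comparison of probes was chosen after the values were seen. Scaling of the array cancels in it, and the sources used here do not say which transcript forms each probe reads.

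**Figure D2:**
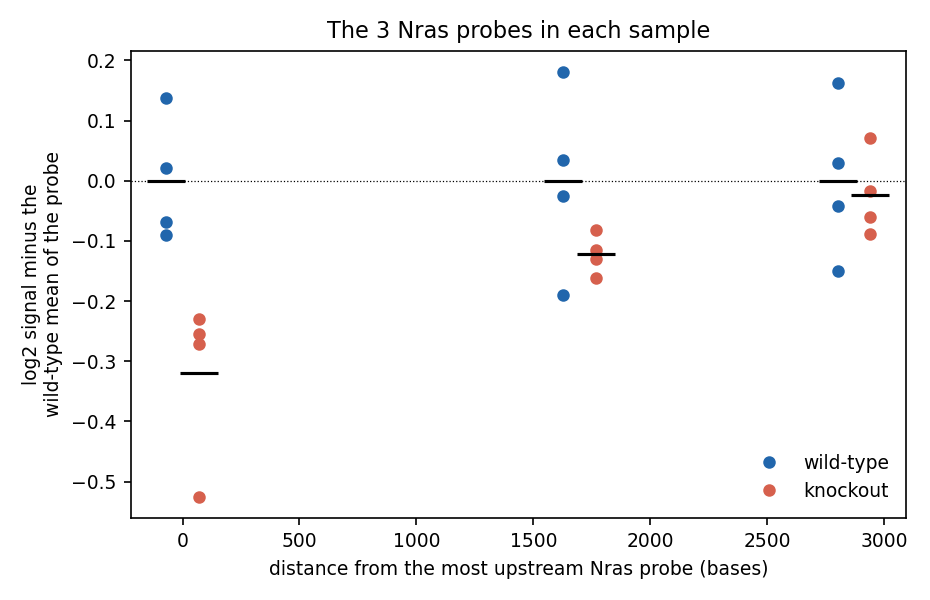
Log2 signal minus the wild-type mean of the same probe (y axis) for the 3 Nras probes against their genomic distance in bases from the most upstream probe (x axis), points being the 4 wild-type (blue) and 4 knockout (red) samples and bars the group means. The knockout mean minus the wild-type mean is -0.32 at the upstream probe, -0.12 at the middle probe and -0.024 at the downstream probe.

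Rap1a and Rap1b are near-identical geranylgeranylated GTPases that activate integrins and tighten endothelial junctions, and Rap1b is the main form in platelets. Rap1a read -2.64, -2.90, -3.22 and -3.37 in the wild-type and -3.30, -3.64, -3.59 and -3.96 in the knockout samples. The knockout samples were the lower ones except replicate 1, which lay above wild-type replicate 4. The difference of -0.59 ± 0.19 (SE, 1.51-fold lower) was the largest of the 8 genes in size but missed the threshold (limma, adjusted p = 0.126). Its only probe is dim, with a processed signal of 39.97 to 103.8 on the scanner's scale. As given above, only 25 of the 60 bases of that probe are placed on the genome, and its match was not checked. With normexp background correction the difference shrank to -0.26, and without the 3 samples highest in cardiac muscle markers it was -0.37.

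Rap1b had 5.47, 5.65, 5.52 and 5.59 in the wild-type and 5.60, 5.44, 5.51 and 5.31 in the knockout samples, so the groups overlapped. It differed by -0.092 ± 0.085 (SE; limma, adjusted p = 0.529). The 95% interval ran from -0.29 to 0.10, which leaves out a fall of more than 1.22-fold. Without the 3 samples highest in cardiac muscle markers it stood at 0.027.

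Neither Rala nor Ralb passed the test. Rala, which drives exocyst-dependent membrane delivery, read 3.90, 3.98, 3.92 and 4.09 in the wild-type and 4.09, 3.82, 3.89 and 3.92 in the knockout samples at the probe over the guanine-recognition motif. It differed by -0.043 ± 0.085 (SE; limma, adjusted p = 0.79), with a 95% interval from -0.24 to 0.15, and the sign turned with quantile normalization (0.011). A second, dimmer Rala probe 7499 bases downstream on the genome gave -0.28 ± 0.13 (SE), and its groups overlapped. With both probes averaged, Rala differed by -0.16.

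Ralb, which also links the exocyst to the kinase TBK1, read 4.66, 4.76, 4.79 and 4.96 in the wild-type and 5.13, 4.70, 4.67 and 4.87 in the knockout samples. Knockout replicate 1 was the highest of the 8. The difference was 0.050 ± 0.12 (SE; limma, adjusted p = 0.831), with a 95% interval from -0.23 to 0.33, and it was -0.047 without Ggps1_knockout replicate 1 and -0.0061 with median centring.

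Rap2a separated the genotypes. Rap2 proteins act through the kinases Tnik, Mink1 and Map4k4, and Rap2a is known to carry farnesyl and Rap2b geranylgeranyl. Rap2a read 3.05, 3.23, 3.05 and 2.96 in the wild-type and 2.70, 2.81, 2.69 and 2.52 in the knockout samples. All 4 knockout samples lay below all 4 wild-type samples, which 15.3% of all genes showed in either direction and 9.22% in this direction (6.1% the other way). The difference was -0.39 ± 0.092 (SE, 95% interval -0.60 to -0.18), and it missed the threshold (limma, adjusted p = 0.0765). Ordered by p, Rap2a stood within the first 3.66% of all genes, of which 0.0614% passed. With no filter on dim probes it passed (limma, adjusted p = 0.0466), but there 3505 of 36085 genes were called, against 15 of 24437 in the main fit. Over the 20 settings run, its difference stayed between -0.45 and -0.32 and its adjusted p between 0.0466 and 0.211.

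Rap2b read -1.30, -0.73, -1.06 and -0.88 in the wild-type and -1.34, -0.71, -1.39 and -1.20 in the knockout samples. The groups overlapped, with knockout replicate 2 the highest of all. It differed by -0.17 ± 0.18 (SE; limma, adjusted p = 0.601), and its 95% interval, from -0.59 to 0.25, covers the value of Rap2a. A difference between both Rap2 genes was not tested.

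**Figure D3:**
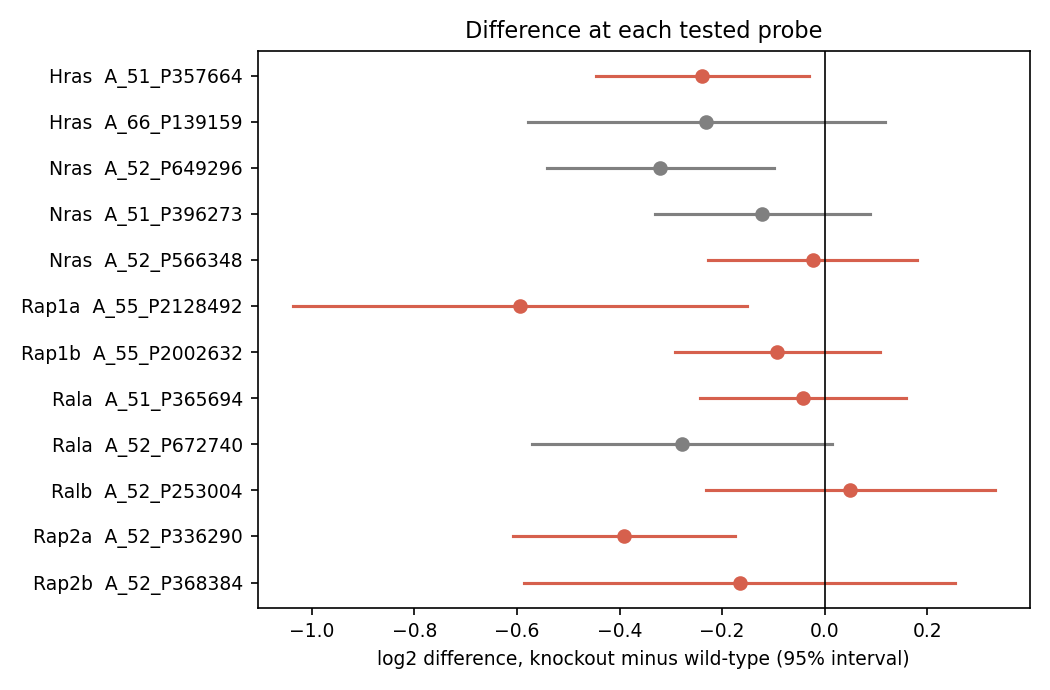
Log2 difference, knockout minus wild-type (x axis), with its 95% interval from limma for the 12 tested probes, ordered by gene and then from upstream to downstream. Red marks the brightest probe of each gene and grey the other probes; 4 intervals (Hras A_51_P357664, Nras A_52_P649296, Rap1a and Rap2a) lie wholly below 0.

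Set out by lipid, the farnesylated Ras genes and the geranylgeranylated Rap1 and Ral genes covered overlapping ranges. Rap2a (-0.39, farnesyl) and Rap2b (-0.17, geranylgeranyl) were kept out of both classes. The median difference was -0.13 over Hras and Nras and -0.067 over Rap1a, Rap1b, Rala and Ralb. Per sample, the mean of the Ras genes minus the mean of the Rap1 and Ral genes, each relative to its wild-type mean, ran from -0.11 to 0.09 in the wild-type and from -0.13 to 0.15 in the knockout samples, so the groups overlapped. The mean of this score over the knockout samples was 0.039, opposite in sign to the difference between the medians, and no test was made of it.

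Across the 8 samples 20 of 28 pairs of members correlated above 0, and 13 of 28 did so once values were centred on the genotype means. None of the 28 passed after Benjamini-Hochberg adjustment by either measure, and 3 had an unadjusted p under 0.05 for Pearson's r (exact permutation over pairings, two-sided). Rala and Ralb had the highest r, 0.85 (rho = 0.81; exact permutation p = 0.0068 and 0.0218, adjusted p = 0.112 and 0.203). Centred on the genotype means, r was 0.93 (exact permutation, adjusted p = 0.0597). Without wild-type replicate 4 and knockout replicate 1, the samples farthest from the median of Rala, r was 0.43. The size of r thus depended on those samples, though leaving out extreme samples narrows the range, which can itself lower r. Rap1a and Rap2a had r = 0.83 (rho = 0.86; exact permutation p = 0.0108 and 0.0107, adjusted p = 0.112 and 0.203), and 0.54 when centred on the genotype means. Without the samples farthest from the median of Rap1a, r was 0.81. Nras and Rala had r = 0.82 (rho = 0.71; exact permutation p = 0.012 and 0.0576, adjusted p = 0.112 and 0.322), 0.82 when centred, and 0.83 without the samples farthest from the median of Nras.

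The gene whose profile over the 8 samples was most like that of Rap2a was Naip6 (Pearson's r = 0.995), a member of the family of inflammasome receptors, itself at -0.66 ± 0.14 (SE). Rap2a had 745 genes with r over 0.9 among the 24429 compared, Hras 248, Rap1a 216, Rap2b 194, Rap1b 73, Nras 34, Rala 16 and Ralb 10. Values were not centred on the genotype means here, so a difference between the groups that 2 genes share raises their r. The closest profile to Rap1a was that of Arf1 (r = 0.982), a GTPase of Golgi traffic. Those closest to Nras, Rala and Rap2b were Eed (r = 0.963), Papola (r = 0.968) and Zfp934 (r = 0.987). These are the highest of many correlations over the same 8 arrays and serve as a description. The closest profiles to Hras, Rap1b and Ralb belonged to transcripts with no gene symbol.

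The partners of these GTPases were read from 13 lists of regulators, effectors and processing enzymes, 144 genes of which 141 were tested. None rose and none fell (limma, adjusted p under 0.05 over all genes), with 6 higher and 29 lower at an unadjusted p under 0.05. With both directions pooled, these 35 are 24.8% of the genes tested, near the 23.6% of all genes. By direction the shares differed. The 29 lower are a larger share than the 13.4% of all genes, and the 6 higher a smaller share than the 10.2%. Because the lists were chosen with earlier results of these data known, these shares serve only as a description. Of the 141, 101 were below 0, against 54.3% of all genes. The median difference was -0.10 over the 141 and -0.027 over all genes.

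**Figure D4:**
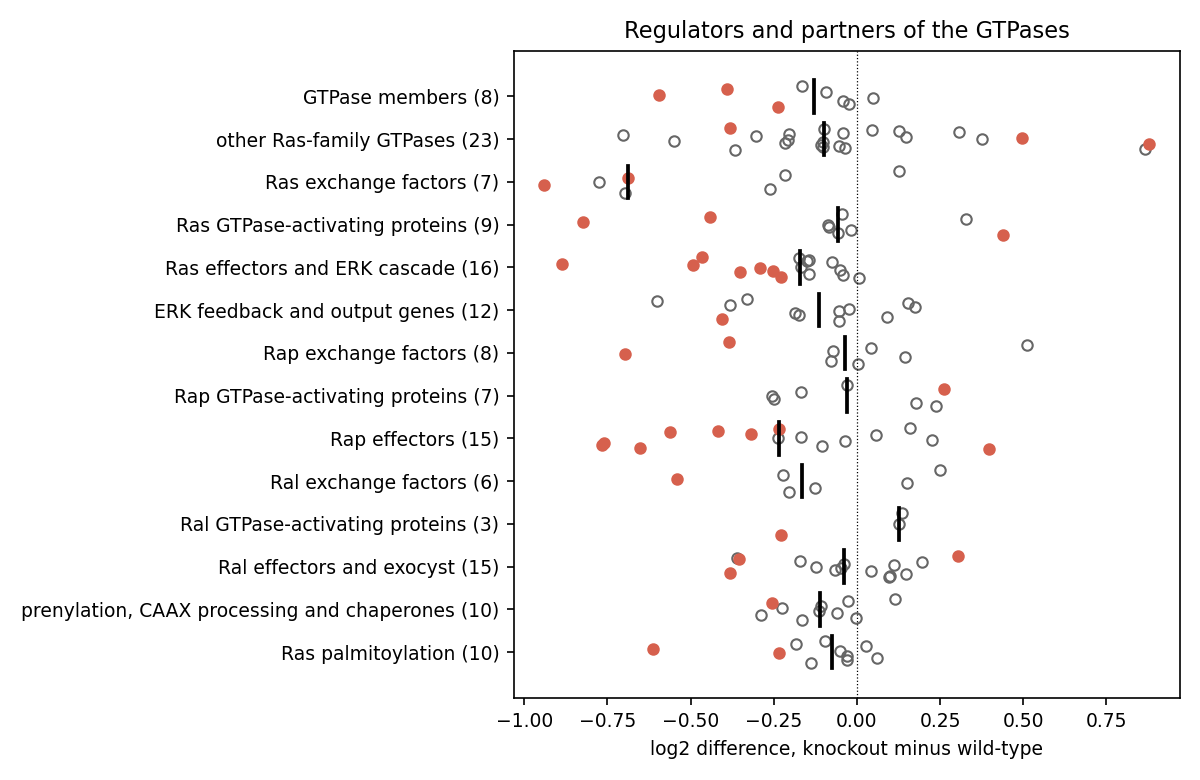
Log2 difference, knockout minus wild-type (x axis), of each tested gene in the list of members and the 13 partner lists, with the number tested in brackets. Filled red points had an unadjusted p under 0.05, open points did not, and black bars are list medians, the lowest being -0.69 for the Ras exchange factors.

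Upstream of Ras, 6 of 7 Ras exchange factors were below 0 (median -0.69), 2 of them at an unadjusted p under 0.05. These 2 are 28.6% of the list, against 23.6% of all genes in either direction and 13.4% lower. Of all genes tested, 54.3% were below 0. Rasgrp4, a diacylglycerol-responsive exchange factor of myeloid and mast cells, read 0.74, 1.13, 0.95 and 0.70 in the wild-type and 0.33, 0.43, -0.02 and 0.03 in the knockout samples. Its groups were apart, as for 9.22% of all genes in this direction. Rasgrp4 differed by -0.69 ± 0.14 (SE; limma, adjusted p = 0.0633), and Rasgrp1, its relative in T cells, by -0.94 ± 0.27 (adjusted p = 0.103 with limma). Ras GTPase-activating proteins, which switch Ras off, were below 0 in 7 of 9 cases and above 0 in 2, with Dab2ip at 0.44 ± 0.12 and Rasa4 at -0.82 ± 0.22 (SE).

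Downstream of Ras, 15 of 16 effectors and ERK cascade genes were below 0 (median -0.17), 7 of them at an unadjusted p under 0.05. Over all genes tested, 54.3% were below 0 and 13.4% were lower at that level. Pik3cg and Pik3cd, the PI3 kinase catalytic subunits of leukocytes, differed by -0.89 ± 0.22 and -0.49 ± 0.13 (SE). The ERK-activating kinases Map2k1 and Map2k2 differed by -0.35 ± 0.099 and -0.25 ± 0.071 (SE). The groups were apart for both, as for 9.22% of all genes in this direction. None of the 16 passed (limma, adjusted p = 0.082 for Pik3cg). Of 12 genes that ERK signalling induces or that restrain it, 1 reached an unadjusted p under 0.05. That was Dusp6, the phosphatase of ERK, which read 4.35, 4.34, 4.51 and 4.41 in the wild-type and 4.13, 4.03, 4.02 and 3.82 in the knockout samples. It differed by -0.41 ± 0.087 (SE; limma, adjusted p = 0.0691), and by -0.41 also with normexp. There it passed (limma, adjusted p = 0.0451), as 1 of 512 genes called among 24437.

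Of 15 tested Rap effectors, 8 reached an unadjusted p under 0.05, 7 lower and 1 higher, and the list median was -0.23. These 8 are 53.3% of the list, against 23.6% of all genes, 13.4% lower and 10.2% higher. Fermt3, the kindlin of blood cells that activates integrins, read 2.01, 2.36, 2.01 and 1.89 in the wild-type and 1.2, 1.68, 1.25 and 1.08 in the knockout samples. All 4 knockout samples were below all 4 wild-type samples, as for 9.22% of all genes in this direction. Fermt3 differed by -0.77 ± 0.15 (SE; limma, adjusted p = 0.0627). With normexp, where 512 of 24437 genes were called, Fermt3 passed at -0.75 (limma, adjusted p = 0.0467). Apbb1ip, the adaptor that brings talin to Rap1, differed by -0.65 ± 0.14, Fyb, an adaptor of T cells and platelets, by -0.76 ± 0.20, and Rgs14, which binds Ras and Rap, by -0.56 ± 0.15 (SE). Of the 8 Rap exchange factors, 4 were below 0. The cyclic AMP sensor Rapgef4 was well above background on all 4 wild-type arrays and on 0 knockout arrays, where its level is only bounded. No fold is given (limma, adjusted p = 0.0647). The lowest signal well above background was -5.49 to -5.27 on the wild-type and -4.94 to -4.64 on the knockout arrays. The wild-type mean of Rapgef4, -4.83, lay within that knockout range, so the count of arrays does not by itself show a loss. Rap GTPase-activating proteins had a median of -0.031.

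Markers of several cell types also differed between the genotypes. Their counts are read against all genes tested, of which 54.3% were below 0. At an unadjusted p under 0.05 were 23.6% of all genes, 13.4% lower and 10.2% higher. All 12 monocyte and macrophage markers were below 0, 11 of them at an unadjusted p under 0.05. Their summed level was 221 to 306 in the wild-type and 129 to 189 in the knockout samples, times the 75th percentile, so the groups were apart. All 10 platelet and megakaryocyte markers were below 0 as well, 8 of them at an unadjusted p under 0.05, with sums of 57.7 to 94.8 and 46.3 to 58.5. Of these, 1 fell past the threshold, as did 0.0286% of all genes. All 10 lymphocyte markers were below 0, 5 of them at an unadjusted p under 0.05, with overlapping sums of 20.9 to 25.6 and 15.0 to 22.2. Of 7 tested neutrophil markers, 5 were below 0, 2 of them at an unadjusted p under 0.05, and the median was -0.28. Their sums overlapped, at 872 to 998 and 915 to 1002. All 8 markers of ciliated cells were above 0, 6 of them at an unadjusted p under 0.05, and their sums of 14.6 to 18.9 and 21.6 to 35.0 were apart. Endothelial markers had sums of 148 to 199 and 141 to 223. All 5 fat markers were above 0 (median 3.22), with overlapping sums of 6.03 to 87.8 and 7.18 to 237, and Lep was well above background on 0 wild-type arrays. All 5 smooth muscle markers were above 0 (median 0.51), with overlapping sums of 61.8 to 108 and 69.6 to 220. Of the 10 cardiac muscle markers, 9 were above 0 (median 1.63), none at an unadjusted p under 0.05. The part of these cell types in the differences of Rap2a, Rasgrp4, Fermt3 and Apbb1ip was not tested.

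Around Ral the lists were mixed. Of 15 Ral effectors and exocyst genes, 8 were below 0 and 7 above (median -0.038), with the exocyst subunit Exoc4 at -0.38 ± 0.10, Reps1 at -0.36 ± 0.093 and Ybx3, a Rala-binding transcription factor, at 0.30 ± 0.10 (SE). Among Ral exchange factors, Rgl1 differed by -0.54 ± 0.18 (SE). The Ral GTPase-activating subunit Ralgapa1 differed by -0.23 ± 0.089 (SE), with the groups apart, as for 9.22% of all genes in this direction. None of these passed (limma, adjusted p = 0.0887 for Reps1, the smallest of them).

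No enzyme that lipidates or processes the GTPases passed the test. Of 10 genes for prenylation, CAAX processing and chaperones, 9 were below 0 (median -0.11), against 54.3% of all genes. Of the 10, 1 reached an unadjusted p under 0.05, as did 23.6% of all genes. That was Rap1gds1, the chaperone that escorts Rap1 and its relatives to the membrane, at -0.26 ± 0.085 (SE; limma, adjusted p = 0.133). Pde6d, a carrier of prenylated proteins, differed by -0.23 ± 0.099, Zmpste24, a CAAX protease, by 0.11 ± 0.073, and Fdps, which makes farnesyl diphosphate, by -0.16 ± 0.10 (SE). Of 10 genes for palmitate attachment and removal, which acts on Hras and Nras, 8 were below 0, with the acyltransferase Zdhhc14 at -0.61 ± 0.21 and the thioesterase Lypla1 at -0.23 ± 0.084 (SE). Among 23 other Ras-family GTPases, Rasl12 (0.50 ± 0.15) and Rasd1 (0.88 ± 0.29) were higher in all 4 knockout samples than in any wild-type sample, and Rras2 differed by -0.38 ± 0.12 (SE), none past the threshold (limma, adjusted p = 0.106 for Rasl12). Of all genes, 6.1% had groups apart upward and 15.3% in either direction, and 3 of these 23 were apart in either direction.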

How the data were processed

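Cy3-labelled cRNA was scanned, and spots were quantified in Agilent Feature Extraction 10.7.1.1, per the submitters' processing notes. The deposited intensity values, per the file headers, include a background-subtracted, detrended processed signal per spot, and probe coordinates are on mm9. The authors' deposited value table holds log2 values whose columns share 1 median (5.63) and correlated with log2 processed signal at r of 0.999 or more on every array. The sources used here do not name its normalization.

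Control and outlier spots were left out, spots of a probe averaged, and log2 processed signal set relative to the array's 75th percentile, with no pseudocount. Saturated probes numbered 0. Probes entered the test if at least 3 arrays of either group had them well above background (33866), and the brightest per gene used (24437 genes). Names follow RefSeq (GRCm38.p6) through accession, symbol or synonym for 29676 probes, and the file otherwise for 26005. Differences were tested in limma 3.58.1 under R 4.3.3 (two-sided, Benjamini-Hochberg, threshold 0.05), which was tested on simulated data. Single values used exact permutation. The number of arrays limits precision.

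The members and lists were chosen with earlier results of these data known. Genes named are all members, Ggps1, up to 4 genes of each list by smallest p, and each member's closest profile. Alternatives changed the background correction, scaling, filter, probes, variance model, weights, pairing and samples.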

Additional observations from a re-analysis of the deposited data

Results flagged for a closer look

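At the upstream Nras probe (A_52_P649296), knockout replicate 3 stood apart from its group by Dixon's test for 4 values, at 0.83 against 1.08 to 1.12 in the other 3 knockout samples. Without that sample the probe's difference was -0.25 in place of -0.32 (limma, adjusted p = 0.154). Of 24 sets of 4 values tested, this was the 1 set so marked, and chance marks about 1 in 20.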

How the results depend on the processing

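Of the tests reported, 0 members, 0 member probes and 0 partner genes passed. With no filter on dim probes, which raised the genes tested to 36085 and the genes called to 3505, 1 member and 1 member probe passed, both Rap2a at -0.39 (limma, adjusted p = 0.0466), and 5 partner genes passed (Apbb1ip, Dusp6, Fermt3, Rapgef4 and Rasgrp4). With normexp 2 partner genes passed (Dusp6 and Fermt3), with an intensity trend the same 2, and with array weights 1 (Rapgef4, well above background on 0 knockout arrays). Genes called over the whole array numbered 15 in the analysis reported, 512 with normexp, 417 with the trend, 338 with array weights, 126 with the filter on all 8 arrays, 36 with median centring, 9 with probe means and 5 without the 3 samples highest in cardiac muscle markers, a setting chosen after seeing the data. Leaving out 1 sample at a time gave 0 members, 0 member probes and 0 partner genes each time, and between 1 and 24 genes called over the whole array. The sign of Nras turned with quantile normalization (0.015), with the deposited table (0.016), and without those 3 samples (0.036). Over the left-out samples it ran from -0.074 to 0.031. That of Rala turned with quantile normalization (0.011), the deposited table (0.012) and without those 3 samples (0.021). That of Ralb turned with median centring (-0.0061) and ran from -0.047 to 0.11 over the left-out samples. Rap1b was 0.027 without those 3 samples and ran from -0.14 to -0.042 over the left-out samples, the ends being without Ggps1_knockout replicate 1 and replicate 4. Rap2b ran from -0.32 to -0.077, without Ggps1_knockout replicate 2 and wildtype replicate 2, and Rala from -0.097 to -0.0029, without Ggps1_knockout replicate 1 and wildtype replicate 4. The median of Ras minus that of Rap1 and Ral ran from -0.10 to -0.032. The dim Hras probe A_66_P139159 was 0.049 with normexp, Rapgef4 0.0080 and Spred3 0.057. With the mean of the probes, Ggps1 was 0.0054 and Ralgapa2 -0.19. Rapgef3 ran from -0.036 to 0.30 over the left-out samples. The cause was not tested. Of 152 member values under alternatives, 141 kept their direction and side of the threshold. Same-numbered samples did not deviate together in every pair (r from -0.29 to 0.47), so the numbers were not taken as pairs. With the replicate block 0 members passed and 46 genes were called over the whole array (Rap1a, -0.59, adjusted p = 0.0629 with limma). A slide block was not run because there was 1 slide. Dim signal limits Rap1a and the downstream Hras probe.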
